A study of Mus musculus with 4 samples.

Results

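Ddx58, Ifih1, Dhx58, Mavs, Zbp1, Eif2ak2 and Adar encode proteins that detect or act on double-stranded or otherwise unusual RNA in the cell. The set was defined by gene name, through the gene symbol of the authors' table or the transcript that the array design gives for a probe, and it held 7 of 25107 named genes, read by 14 of 56605 probes. All 14 probes were well above background on all 4 arrays, so every one of the 7 genes was measured. Ddx58 encodes RIG-I and Ifih1 encodes MDA5, both of them helicases that bind viral RNA and pass the signal to the mitochondrial adaptor encoded by Mavs. Dhx58 encodes LGP2, a related helicase that lacks the signalling domains and tunes the other sensors. Zbp1 encodes a sensor of left-handed nucleic acid helices that can trigger cell death, Eif2ak2 encodes PKR, a kinase that halts translation when it binds double-stranded RNA, and Adar encodes an enzyme that edits adenosine to inosine in double-stranded RNA and so keeps the cell's own RNA from being sensed. Most of these genes are known as targets of type I interferon, which macrophages release when the endosomal RNA receptor TLR7 is engaged.

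The cells were bone marrow-derived macrophages of male C57BL/6J mice, grown with macrophage colony-stimulating factor. The 4 groups were Batf2 knockout (Batf2-/-) stimulated with R848, Batf2-/- untreated, wild type stimulated with R848, and wild type untreated. Stimulation was with 100 ng/ml for 8 h, and the untreated samples were taken at 0 h, so that R848 and 8 h of further culture cannot be told apart. R848 (resiquimod) is a synthetic agonist of TLR7 in mouse cells, and Batf2 is a basic leucine zipper factor of the AP-1 family. Each group had 1 array of 1 colour, so no difference below has a replicate check, no test is possible, and variation between cultures was not measured; the labels do not say how many animals gave cells to a culture.

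On the 4 arrays 60.6% to 71.4% of probes were well above background, and the 75th percentile of the signal lay between 252 and 278. Batf2, read by 1 probe, had a normalised signal of 11.3 (not well above background) with R848 and 26.9 untreated in knockout cells, against 94.4 with R848 and 32.4 untreated in wild-type cells. With R848 it was at least 6.20-fold lower in knockout cells and untreated 1.21-fold lower, and whether the probe lies in the deleted part is unknown. Of 8 macrophage markers 8 were well above background on every array, among them Adgre1, Csf1r and Itgam, and their summed signal was 213475 in knockout cells with R848, 194113 in knockout untreated, 181493 in wild type with R848 and 168252 in wild type untreated. The summed signal of 9 basophil and mast cell markers was 727 in knockout cells with R848 and 653 in knockout untreated, against 3555 in wild type with R848 and 6039 in wild type untreated, and 4, 8, 8 and 9 of the 9 were well above background in that order. For 8 granulocyte precursor markers the sums were 12836 and 14254 in knockout cells with R848 and untreated, against 22136 and 39973 in wild-type cells with R848 and untreated. Ltf (4818) and Camp (7333) held most of the untreated knockout sum. Their log2 differences between untreated knockout and wild type were -0.16 and -0.39. Those of the other markers of this list ran from -4.02 (Ctsg) to -1.56 (Cebpe). In a bulk sample fewer cells of a type and less RNA per cell cannot be told apart, and the part that these other cells had in the genotype differences below was not tested. Values are normalised signals, scaled so that all arrays share 1 75th percentile, and a difference is called at 2-fold, a log2 difference of 1. Spots of 1 probe printed 10 times on an array varied with an SD of 0.084 for the knockout response, 0.10 for the wild-type response, 0.095 between untreated genotypes, 0.098 between genotypes with R848 and 0.14 for the difference between responses (log2, 295 probes), which covers error within an array only.

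Promoters are shown first so that the letters through which interferon-activated factors are known to bind can be looked for. RefSeq windows of GRCm38.p6, from 250 bases before to 50 after a transcript start, were found for 5 of the 7 genes, and none for Dhx58 or Zbp1. They were searched on both strands for the interferon-stimulated response element, written GAAA, any 2 bases, GAAA, which 3.44% of 32851 windows of the same length hold. A version with 1 base fewer between the repeats, GAAANGAAA, was added after these windows had been read, and 3.17% of all windows hold it. The 2 patterns do not share a match in the windows shown. Capitals mark matches to either.
Ddx58, minus strand, chr4:40239776-40240075: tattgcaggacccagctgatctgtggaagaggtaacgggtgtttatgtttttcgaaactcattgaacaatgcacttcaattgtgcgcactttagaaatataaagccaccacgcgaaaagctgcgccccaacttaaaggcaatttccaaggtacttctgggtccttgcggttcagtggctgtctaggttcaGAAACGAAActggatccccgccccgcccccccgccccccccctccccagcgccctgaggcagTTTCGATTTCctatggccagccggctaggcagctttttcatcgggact
Ifih1, minus strand, chr2:62646206-62646505: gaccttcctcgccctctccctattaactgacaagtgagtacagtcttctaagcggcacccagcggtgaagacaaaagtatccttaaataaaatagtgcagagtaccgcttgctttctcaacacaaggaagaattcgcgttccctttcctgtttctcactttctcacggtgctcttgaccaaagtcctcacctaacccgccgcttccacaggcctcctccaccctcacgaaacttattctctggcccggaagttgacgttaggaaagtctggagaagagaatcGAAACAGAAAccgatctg
Eif2ak2, minus strand, chr17:78882523-78882822: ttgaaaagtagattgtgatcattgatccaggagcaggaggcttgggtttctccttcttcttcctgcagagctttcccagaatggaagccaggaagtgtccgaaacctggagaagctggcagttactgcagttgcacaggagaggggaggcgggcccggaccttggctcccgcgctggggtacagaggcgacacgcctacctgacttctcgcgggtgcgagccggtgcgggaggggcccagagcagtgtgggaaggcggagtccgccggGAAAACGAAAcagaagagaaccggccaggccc
Adar, plus strand, chr3:89730468-89730767: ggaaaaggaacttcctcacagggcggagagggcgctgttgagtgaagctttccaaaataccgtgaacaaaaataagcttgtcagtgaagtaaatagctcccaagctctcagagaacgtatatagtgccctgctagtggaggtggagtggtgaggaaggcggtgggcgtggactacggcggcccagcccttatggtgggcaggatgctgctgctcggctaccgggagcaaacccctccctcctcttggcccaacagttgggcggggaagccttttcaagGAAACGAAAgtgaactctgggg
Mavs, plus strand, chr2:131233813-131234112: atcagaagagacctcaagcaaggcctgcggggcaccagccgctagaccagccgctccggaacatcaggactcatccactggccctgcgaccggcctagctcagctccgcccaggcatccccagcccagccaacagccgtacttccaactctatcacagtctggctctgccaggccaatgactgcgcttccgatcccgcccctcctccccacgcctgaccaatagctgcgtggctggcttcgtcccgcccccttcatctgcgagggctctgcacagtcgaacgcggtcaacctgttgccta

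The Ddx58 window held GAAACGAAA from base -60 relative to the start and TTTCGATTTC, the full element read on the opposite strand, from base 3 after it. Ifih1 held GAAACAGAAA from base 33 and Eif2ak2 held GAAAACGAAA from base 19. Of the 3 Adar windows the one printed held GAAACGAAA from base 29, and the other 2, at starts farther upstream, held no match to either pattern. The Mavs window held neither. The AP-1 letters TGANTCA were in none of the 7 windows of the set, and 7.81% of all windows hold them. The gamma-activated site letters TTCNNNGAA were in the Eif2ak2 window and the printed Adar window, against 8.30% of all windows, and in Adar the match overlaps that of GAAANGAAA. The kappaB letters, GGG, any 5 bases, CC, were in the Eif2ak2 window and 2 Adar windows, against 50.8% of all windows. A match is a description of the letters and not a measured binding site.

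The first question was how far each gene differed between 8 h with the TLR7 agonist and 0 h, in knockout and in wild-type cells. At the brightest probe, 5 of the 7 genes were at least 2-fold higher with R848 in knockout cells, where 6.84% of 19840 genes were that much higher. The same count, 5 of 7, was found in wild-type cells, where 6.19% of 18763 genes were. No member was 2-fold lower in either genotype, against 6.57% of genes lower in knockout cells and 7.01% in wild-type cells. The median log2 response of the 7 genes was 1.84 in knockout cells and 1.15 in wild-type cells, beside -0.059 and -0.029 for all genes. The set was chosen with such responses known, so these counts describe it and test nothing.

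**Figure D1:**
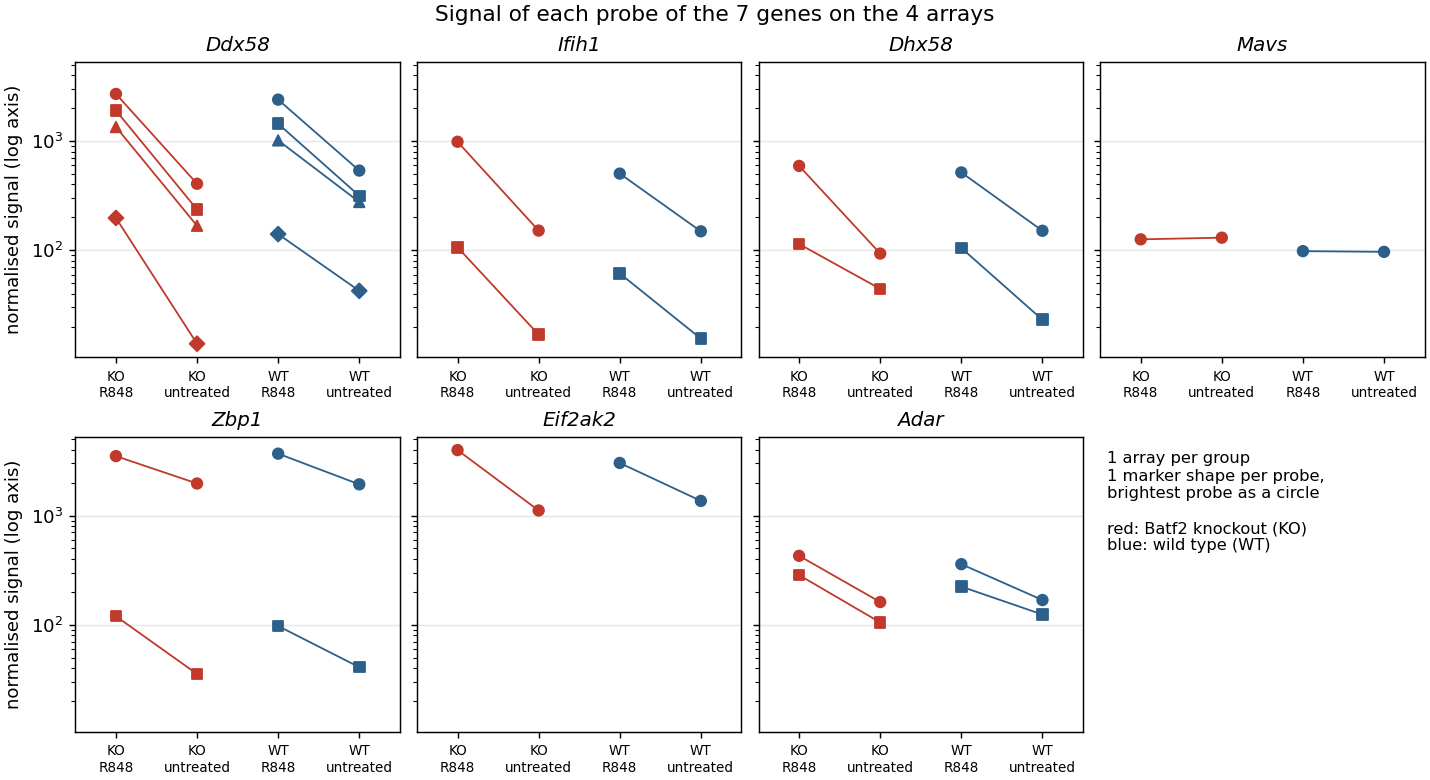
Normalised signal (log axis) of each probe of the 7 genes on the 4 arrays, 1 array per group, with a line joining the arrays of 1 genotype. Every probe but that of Mavs was higher with R848 in both genotypes, and Mavs stayed between 96.7 and 130.

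The sensors Ddx58, Ifih1 and Dhx58 had the 3 largest responses of the set in each genotype at their brightest probes. Ddx58 (gene 230073, chr4:40203777-40239825) gave 2692 with R848 and 406 untreated in knockout cells, and 2387 with R848 and 536 untreated in wild-type cells. That is 6.63-fold higher with R848 in knockout and 4.46-fold in wild type, more than 98.9% and 98.5% of the genes measured. All 4 Ddx58 probes gave a higher response in knockout than in wild type, with 3.14 ± 0.47 in knockout and 1.99 ± 0.22 in wild type (log2, mean and SD over 4 probes, which share each array and are not replicates). The dimmest probe, A_52_P523946, had the highest knockout response, 14.2-fold, but its untreated knockout signal of 14.0 lay near the lowest signal well above background on that array, 11.6.

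Ifih1 (gene 71586, chr2:62595618-62646255) gave 983 with R848 and 151 untreated in knockout cells, and 503 with R848 and 149 untreated in wild-type cells. The untreated arrays were close and the knockout array with R848 stood highest, so that the response was 6.50-fold in knockout and 3.37-fold in wild type. The other Ifih1 probe, which the design places on a further transcript, gave 6.30-fold and 3.95-fold in the same order. Dhx58 (gene 80861, chr11:100694884-100704271) gave 591 with R848 and 93.2 untreated in knockout cells, and 515 with R848 and 151 untreated in wild-type cells. Its response was 6.34-fold in knockout and 3.42-fold in wild type at that probe. The 2 Dhx58 probes disagreed: A_51_P363218 had a response of 2.57-fold in knockout, from 114 with R848 and 44.3 untreated, and of 4.53-fold in wild type, from 105 with R848 and 23.1 untreated. The order of the genotypes was therefore opposite at the 2 probes of Dhx58, and no direction is given for it. The array design places these 2 probes on different transcripts, and A_51_P363218 is the dimmer.

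Mavs, the adaptor that these helicases need for signalling, was the member with the smallest response in both genotypes. Mavs (gene 228607, chr2:131234063-131248025) gave 126 with R848 and 130 untreated in knockout cells, and 98.1 with R848 and 96.7 untreated in wild-type cells. The log2 response was -0.051 in knockout and 0.022 in wild type, both smaller than the SD between spots. With median centring the wild-type value was 0.18, above that SD, where the median of all genes was 0.13.

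Among the effectors Eif2ak2 had the largest response at the brightest probe. Eif2ak2 (gene 19106, chr17:78850504-78882572), with 1 probe, gave 3969 with R848 and 1112 untreated in knockout cells, and 3026 with R848 and 1361 untreated in wild-type cells, responses of 3.57-fold and 2.22-fold. Adar (gene 56417, chr3:89714469-89753455) gave 428 with R848 and 162 untreated in knockout cells, and 359 with R848 and 169 untreated in wild-type cells. The Adar responses were 2.65-fold in knockout and 2.13-fold in wild type, and 2.71-fold and 1.80-fold at the other probe. The array design places both Adar probes on 1 RefSeq transcript.

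Zbp1 (gene 58203, chr2:173206612-173218959) gave 3496 with R848 and 1963 untreated in knockout cells, and 3681 with R848 and 1929 untreated in wild-type cells. At this probe Zbp1 missed 2-fold in both genotypes, at 1.78-fold in knockout and 1.91-fold in wild type, but in wild type it passed 2-fold with median centring (log2 1.09). The other probe, A_66_P139683, gave 120 with R848 and 35.5 untreated in knockout cells, and 97.6 with R848 and 41.0 untreated in wild-type cells, which is 3.38-fold and 2.38-fold. The 2 Zbp1 probes are placed on different transcripts of the gene. Counted by probe, 12 of 14 probes of the set were at least 2-fold higher with R848 in knockout cells and 11 of 14 in wild-type cells. The share over all probes was not computed, and 4 of the 14 probes read Ddx58. By gene the count was 5 of 7 in each genotype, beside 6.84% of all genes in knockout and 6.19% in wild type.

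**Figure D2:**
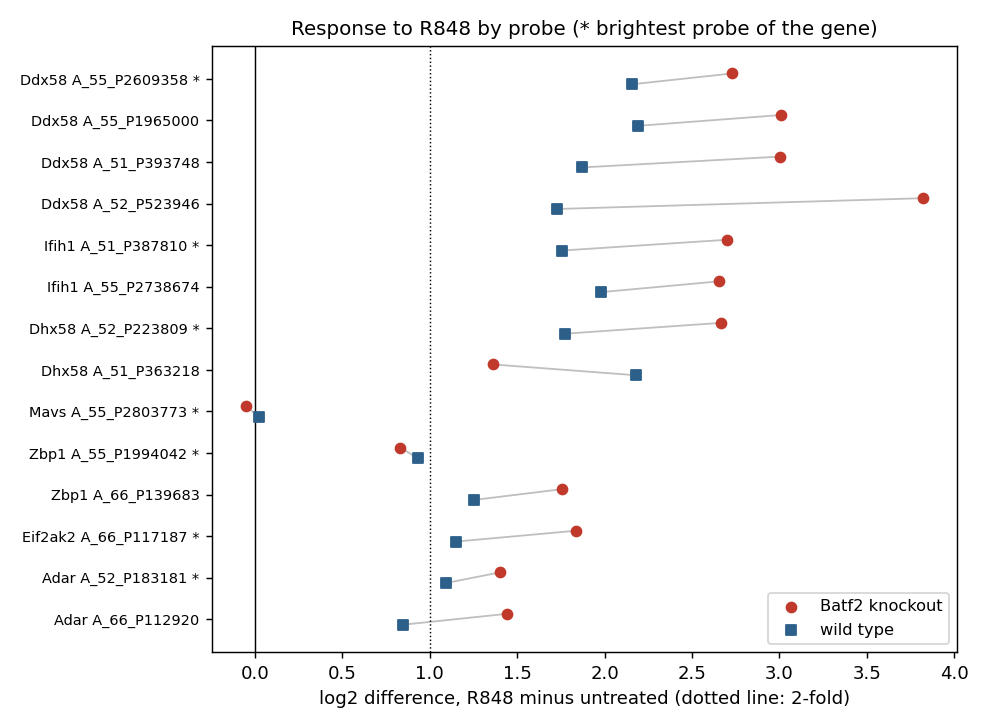
Log2 difference between R848 and untreated for each of the 14 probes, knockout (circles) above wild type (squares), with the 2-fold line dotted. The knockout response was the larger at 11 of 14 probes, 4 of them of Ddx58. It was the larger for 5 of 7 genes at the brightest probe, beside 48.1% of all genes. Dhx58 is among the 5, but its other probe went the opposite way. The exceptions among the probes were the probe of Mavs, 1 of 2 probes of Dhx58 and 1 of 2 probes of Zbp1.

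The genotypes were then compared on untreated cells, which shows how the sensors stood in knockout cultures before stimulation. At the brightest probe 0 of 7 genes differed by 2-fold, where 2.8% of 20301 genes were higher in the knockout and 3.18% lower. Dhx58 was 1.62-fold lower in knockout cells, Ddx58 1.32-fold lower and Eif2ak2 1.22-fold lower. These differences were larger than the spot spread, but the second Dhx58 probe was 1.92-fold higher in the knockout. All 4 Ddx58 probes were lower in untreated knockout cells, with log2 differences between -1.61 and -0.40, and only A_52_P523946, the dimmest, passed 2-fold, at 3.05-fold lower. Ifih1, Zbp1 and Adar differed by 0.022, 0.026 and -0.061 on the log2 scale at their brightest probes, less than the spot spread. Their other probes differed by 0.12, -0.21 and -0.24 in the same order, more than the spot spread. That spread is over probes of all brightness, and the other Ifih1 probe was dim untreated, at 16.9 in knockout and 15.5 in wild type. Mavs was 1.35-fold higher in knockout cells, by 0.43 on the log2 scale. The basophil and granulocyte precursor sums given above were lower in the knockout on the same arrays.

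With R848 the question was whether stimulated knockout and wild-type cells ended at different levels. Again 0 of 7 genes passed 2-fold at the brightest probe, where 2.34% of 18768 genes were higher in the knockout and 2.45% lower. The widest gap of the set was that of Ifih1, with 983 in knockout and 503 in wild-type cells, 1.96-fold higher in the knockout, and the other Ifih1 probe was 1.74-fold higher. Both differences were larger than the spot spread, and that of the brightest probe exceeded 97.4% of the genes measured. Eif2ak2 was 1.31-fold higher, Mavs 1.28-fold and Adar 1.19-fold. Ddx58 and Dhx58, lower in untreated knockout cells at their brightest probes, were 1.13-fold and 1.15-fold higher with R848. The other Ddx58 probes were 1.32-fold, 1.33-fold and 1.40-fold higher. Zbp1 was 1.05-fold lower, less than the spot spread, and 0.11 higher on the log2 scale as the mean over its probes. At the brightest probe 6 of 7 genes were above 0, beside 54.9% of all genes. By probe 13 of 14 were, 4 of them of Ddx58, and the share over all probes was not computed.

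The knockout response minus the wild-type response combines both comparisons and shares their arrays. At the brightest probe 0 of 7 genes reached 2-fold, where 3.14% of 18457 genes were that much higher and 2.5% lower, and 2 of 14 probes did, both of Ddx58. The log2 difference at the brightest probe was 0.95 for Ifih1, 0.89 for Dhx58, 0.68 for Eif2ak2, 0.57 for Ddx58 and 0.31 for Adar. For Mavs (-0.072) and Zbp1 (-0.10) it was smaller than the spot spread. The other probe gave 0.67 for Ifih1, -0.82 for Dhx58, 0.59 for Adar and 0.50 for Zbp1. The other probes of Ddx58 gave 0.82, 1.13 and 2.10. The terms behind the values at the brightest probes differed between the sensors. For Ifih1 the gap with R848 was 0.97 and the untreated gap 0.022 (knockout minus wild type). For Ddx58 the gap with R848 was 0.17 and the untreated gap -0.40 at the brightest probe. Its other probes had gaps of 0.40, 0.41 and 0.49 with R848 and, in the same order, of -0.42, -0.72 and -1.61 untreated. For Eif2ak2 the gap with R848 was 0.39 and the untreated gap -0.29. Whether the difference between responses itself differs between genes was not tested.

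**Figure D3:**
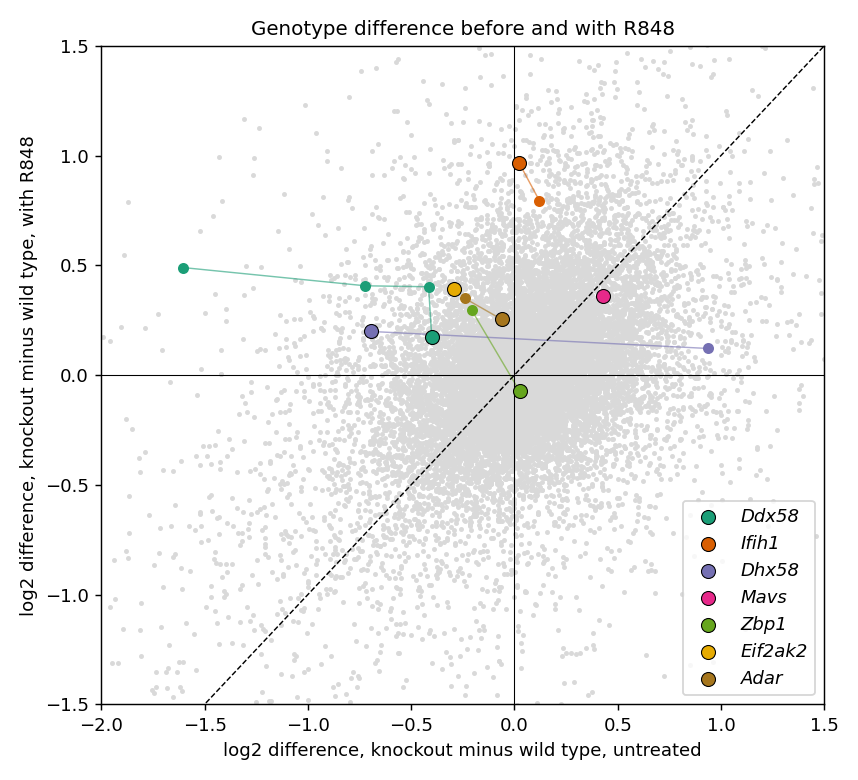
Log2 difference between knockout and wild type with R848 (vertical axis) against the same difference untreated (horizontal axis). Large points are the brightest probe of each gene, small points joined to it its other probes, grey points genes well above background on all 4 arrays (those outside the axes are not drawn), and the dashed line marks equal differences. Ifih1 lies high near 0 on the horizontal axis, Ddx58 lies to the left, and the 2 Dhx58 probes lie on opposite sides of 0.

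The genes nearest to each member over the 4 arrays were taken among 17142 genes well above background on all of them, by the Euclidean distance of log2 signals centred on each gene's own mean. Ddx58 had as its nearest gene Mmp9, a matrix metalloprotease (distance 0.057). Dhx58 lay closest to Mndal (0.039), a gene of the interferon-inducible Ifi200 family, and to Mefv (0.15), which encodes pyrin. Eif2ak2 lay closest to the antibody receptor gene Trim21 (0.037) and the immunoproteasome subunit gene Psmb10 (0.080). Ifih1 had Layn (0.16) and the immunity-related GTPase gene Irgm2 (0.18), Adar had Trim34a (0.046) and the formyl peptide receptor gene Fpr3 (0.052), Zbp1 had Ncf4 (0.017), a subunit of the NADPH oxidase, and the chaperonin subunit gene Cct6a (0.046), and Mavs had the kinase genes Map2k5 (0.027) and Cdk3 (0.037). Cdk3 and Fpr3 were dim, with signals on the 4 arrays between 20.8 and 27.3 for Cdk3 and between 17.8 and 48.1 for Fpr3. Among the members, Ddx58 and Dhx58 were 0.31 apart, and 20 genes lay closer to Ddx58 than Dhx58 did. Eif2ak2 and Adar were also 0.31 apart. With 4 arrays a small distance between genes is common and says nothing of shared control.

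The rest of the RNA-sensing pathway was described with 7 lists of 60 genes, which were chosen with earlier results of these data known. Of 58 measured genes, 13 were at least 2-fold higher with R848 and 1 lower in knockout cells, and 9 were higher and 4 lower in wild-type cells, with medians of 0.29 and 0.21 on the log2 scale. Over all genes 6.84% were higher and 6.57% lower in knockout cells, and 6.19% higher and 7.01% lower in wild-type cells, with medians of -0.059 and -0.029, so the lower count in wild type was near the share of all genes. The counts of single lists below are small and are to be read against the same shares. Between untreated genotypes 1 of 57 was higher in the knockout (Adarb1) and 1 lower (Irf7), against 2.8% and 3.18% of all genes, and with R848 0 of 58 differed by 2-fold. The knockout response exceeded the wild-type response by 2-fold for 4 of 58, among them Irf7, Rnf125 and Mlkl, and fell short by 2-fold for 0, against 3.14% and 2.5% of all genes. For Rnf125 the 2 probes well above background on all 4 arrays gave 1.56 and 1.28, and its other 2 probes were not measured on every array and were negative. Among 17 genes of RIG-I-like receptor signalling 4 were higher in each genotype, and 1 was lower in wild type. Ikbke, a kinase that activates interferon regulatory factors, had log2 responses of 2.01 in knockout and 2.05 in wild type, and the adaptor Traf2 had 1.93 and 1.64. Tank, an adaptor of these kinases, stood at 1.20 in knockout and 1.28 in wild type. Irf7, the interferon regulatory factor that amplifies interferon production, gave 4363 with R848 and 414 untreated in knockout cells, against 5436 with R848 and 2311 untreated in wild-type cells. It was thus 5.58-fold lower in untreated knockout cells, and its difference between responses, 2.16, was the largest of the 58 genes at their brightest probes. The lower gene in wild type was Rnf125, a ubiquitin ligase that acts on RIG-I, at -1.21, with 0.35 in knockout cells, where its 4 probes disagreed in direction.

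Among 8 other RNA helicases Ddx60 and Ddx21 were higher with R848 in both genotypes. Ddx60, an interferon-inducible helicase, stood at 2.45 in knockout and 1.87 in wild type, and Ddx21, a nucleolar helicase, at 1.06 and 1.41. None of the 6 endosomal receptor genes passed 2-fold with R848. Myd88, the adaptor through which TLR7 signals, stood at 0.90 in knockout and 0.52 in wild type, and Tlr8 at -0.85 and -0.34. Of 6 genes of the cell death pathway that ZBP1 can start, 3 were higher in knockout and 1 in wild type, where 6.84% and 6.19% of all genes were. Cflar, which restrains caspase-8, stood at 2.36 in knockout and 2.22 in wild type, Mlkl, which ruptures the membrane in necroptosis, at 2.23 and 0.99, and the adaptor Fadd at 1.23 and 0.40. Ripk3, the kinase upstream of MLKL, was lower in knockout cells both untreated (-0.85) and with R848 (-0.92). Ripk3 was read by 1 dim probe, with signals between 30.2 and 69.6 on the 4 arrays.

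Of 10 genes around PKR and its substrate eIF2, 0 were 2-fold higher, 1 was lower in knockout and 2 in wild type. Of all genes 6.57% and 7.01% were lower in that order, and counts this small do not tell the list from all genes. Prkra, which encodes the PKR activator PACT, was lower in both, at -1.40 in knockout and -1.22 in wild type. Eif2ak3, the eIF2 kinase of the endoplasmic reticulum, stood at -1.10 in wild type and -0.44 in knockout. It was read by 1 dim probe, with signals between 51.1 and 109.8. Atf4, the factor translated when eIF2 is phosphorylated, stood at 0.85 in knockout and 0.71 in wild type. In the list of RNA editing and decay 3 of 4 genes were measured. With R848 0 of the 3 were 2-fold higher in either genotype, 0 were lower in knockout and 1 was lower in wild type. Samhd1, which breaks down deoxynucleotides, stood at 0.56 in knockout and 0.43 in wild type.

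Of 9 genes for interferon and the factor ISGF3, 8 were measured with R848. In knockout cells 4 were at least 2-fold higher and in wild-type cells at least 2, since Ifnb1 has only a lower bound there. Stat2 stood at 2.35 in knockout and 1.46 in wild type, and Irf9 at 1.34 and 0.95, both of them subunits of ISGF3. Untreated, Stat2 stood at -0.44 and Irf9 at -0.39 in the knockout relative to wild type. These are values of the brightest probes. The 2 Stat2 probes disagreed: the other had a response of 1.18 in both genotypes and stood at 0.20 in untreated knockout cells relative to wild type. Ifnb1, the interferon beta gene, was well above background only with R848, at 32.1 in knockout and 20.2 in wild-type cells, and its response was at least 2.77-fold in knockout and at least 1.77-fold in wild type. It was read by 1 probe, and its wild-type signal lay near the lowest signal well above background on that array, 18.6.

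**Figure D4:**
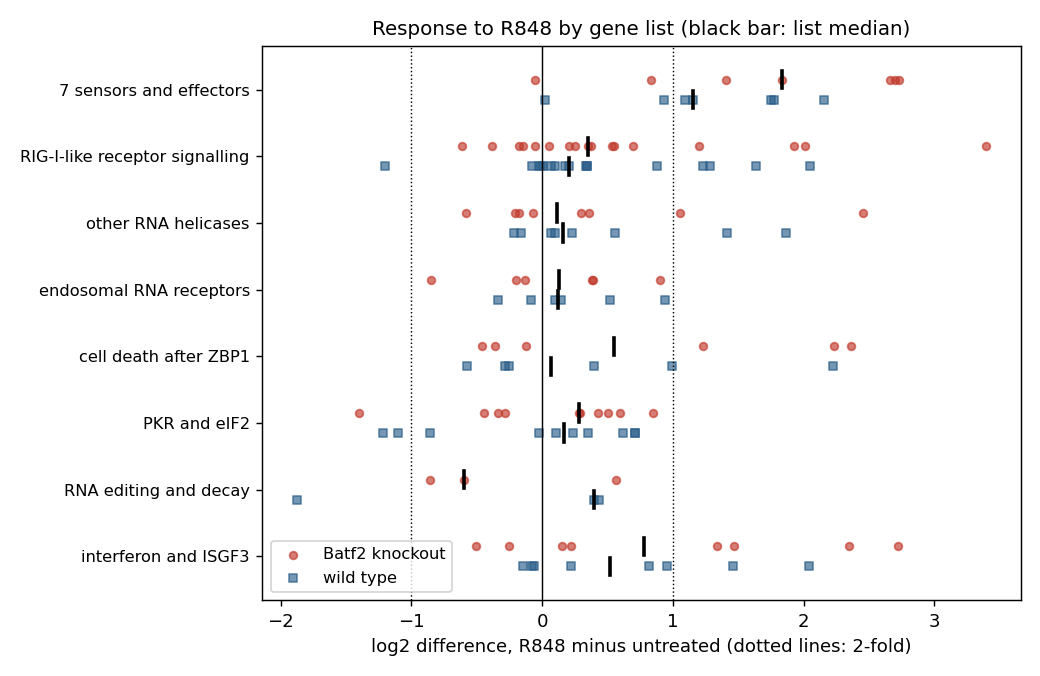
Log2 difference between R848 and untreated for the 7 sensors and effectors and for the 7 lists of other pathway genes, knockout (circles) above wild type (squares), 1 point per gene, with black bars at list medians and dotted lines at 2-fold. The medians of the 7 sensors and effectors were 1.84 in knockout and 1.15 in wild type.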

How the data were processed

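Total RNA of 4 samples was labelled with Cy3 and hybridised to 4 Agilent arrays of 1 colour on 1 slide. The file headers name Agilent Feature Extraction, version 11.5.1.1, as the software that read the spots. The processed signal is an intensity on a linear scale with background and spatial trend removed by that software, per the file headers, and no scaling between arrays; the probe grid is annotated to mm9. In the authors' deposited series table each intensity column equals that signal multiplied by an array-wide factor (3.72 to 4.13, within 1% for 100% of spots), and the origin of the factors is unknown. Its log2 columns, deposited by the authors, hold 1 array over another and served to check directions.

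From the log2 processed signal the 75th percentile of the array, without control spots, was subtracted. Normalised signals add back the mean percentile (264). Spots that the software marks as non-uniform or population outliers were left out (70 to 115 per array), and no spot was saturated. The brightest probe, well above background on at least 1 array, stood for a gene. Dim values were raised to the lowest signal well above background on their array and give lower bounds. Of 56605 probes 40458 were named, through Entrez ID (28867), current symbol, synonym, transcript accession (10230) or the file's own symbol, against the GRCm38.p6 gene table. The call at 2-fold carries no p-value, since each group has 1 array, and precision is limited by the number of arrays.

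The 7 genes, the lists of pathway genes and markers and the naming rule were chosen with earlier results of these data known. The rule named the 7 genes, Batf2, up to 3 genes per list and comparison with the largest difference, and the 2 genes nearest each member; some of these are not reported here. Alternatives were other scalings, normexp (offset 50, limma 3.58.1, on median spot and background signals in place of the planned mean spot signal), the authors' table, other filters, the mean over probes, bright areas left out (a median shift over 0.5 in a window of 9 by 9 spots) and a 1.5-fold call. The steps were tested on simulated data. Python 3.11.15 with numpy 2.4.6 and pandas 2.3.3 was used.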

Additional observations from a re-analysis of the deposited data

Results flagged for a closer look

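Mavs was singled out because its response to R848 was below 0 in knockout cells (-0.051) and above 0 in wild-type cells (0.022). Both values are smaller than the SD between spots of 1 probe (0.084 and 0.10), Mavs has 1 probe, both responses were above 0 with median centring (0.093 in knockout and 0.18 in wild type) and with quantile normalisation (0.026 and 0.13), and the difference between the genotypes was not tested.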

How the results depend on the processing

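Under 8 alternative settings, 0 of the called log2 differences of the 7 genes changed sign, 228 recomputed values moved by less than the spot SD and 52 by more. Called values lay at least 1 from 0, so that sign count had little room to differ. Every probe of the 7 genes was well above background on all 4 arrays and outside the bright areas. The filter settings and the setting without bright areas could therefore hardly move a value. Some uncalled values changed sign, such as Zbp1 between untreated genotypes (3 of 8 settings) and the knockout response of Mavs (2 of 8). With R848 the count of members at least 2-fold higher was 5 to 6 in knockout and 4 to 6 in wild-type cells. Adar in wild type was below 2-fold under normexp and with the mean over probes (lowest 0.83), and Zbp1 passed it with the mean over probes in knockout (1.29) and in wild type (1.09), and in wild type also with median centring (1.09). The count of members past the threshold was 0 in both genotype comparisons and in the difference between responses, and it became 1 lower (Dhx58) untreated, 1 higher (Ifih1) with R848 and 3 higher for the responses at 1.5-fold, and 1 higher (Ddx58, 1.15) for the responses with the mean over probes. With that mean the untreated difference of Dhx58 was 0.12 in place of -0.69 and its difference between responses 0.037 in place of 0.89. Median centring moved the median of all genes to 0.086 in place of -0.059 for the knockout response and to 0.13 in place of -0.029 for the wild-type response. The share of higher genes among those called was then 63.1% in place of 51.0% in knockout and 61.0% in place of 46.9% in wild type. In the genotype comparison with R848 that share was 60.2% in the authors' table in place of 48.9%, and untreated it was 33.6% under normexp in place of 46.8%. Normexp, whose offset shrinks dim differences, called 813 higher and 546 lower for the knockout response (1357 and 1304 in the main setting) and 702 and 575 for the wild-type response (1162 and 1316). Between genotypes it called 111 and 219 untreated (569 and 646) and, stimulated, 104 and 148 (440 and 459); between responses it called 140 and 97 (579 and 461). Without a filter on dim probes 1479 and 1180 genes were called untreated, 1377 and 839 after stimulation, 1728 and 1761 between responses, and 2279 and 2261 lower for the knockout and wild-type responses. Where all 4 arrays had to pass the background limit, 220 and 409 were called untreated and 247 and 325 after stimulation. No paired analysis was possible because each group has 1 array, and no array can be left out. For dim probes the background sets the limit: the lowest signal well above background reached 18.6 on an array.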

Other observations

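Several genes of the RNA-sensing lists have probes that disagree. For Adarb1, which encodes the editing enzyme ADAR2, the brightest probe stood at 1.13 in untreated knockout cells relative to wild type, the other 2 at -0.23 and -0.45. The 4 probes of Traf6, a ubiquitin ligase downstream of MAVS, lay between 0.014 and 0.97 in the same comparison. The 5 probes of Cflar gave knockout responses between 0.64 and 3.69. These genes were picked out after their values had been seen.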
